A study of Mus musculus with 9 samples.

Results

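The genes that carry the first steps of T cell receptor signalling were followed through CD8 T cells sorted from mouse melanomas. The 8 genes were taken by symbol from the count table: the kinases Zap70 and Fyn, the adaptors Lat and Lcp2, the effector enzymes Plcg1 and Prkcq, and the brakes Ptpn22 and Cblb. They are 8 of the 56860 genes listed, and all 8 were among the 15292 with enough reads to be tested. Tumour CD8 T cells had been sorted on 2 surface features, α2,6-linked sialoglycans and PD-1, an inhibitory receptor that T cells raise after antigen contact. Polyadenylated RNA was sequenced from 3 libraries in each of 3 groups. SiaHi_PD1neg cells were high in the sialoglycan and lacked PD-1, SiaHi_PD1pos cells were high in both, and SiaLo_PD1pos cells carried PD-1 but little sialoglycan. All mice carried the WT genotype and had no treatment, and no source used here gives their age or sex. The tumour is a transplanted melanoma, named B16-OVA in the sample labels (B16 cells that make chicken ovalbumin) and B16F10 in the series text. The labels do not say whether replicates came from separate animals, so a p-value here sets a difference against library-to-library spread only, and that spread may be technical.

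An engaged T cell receptor is phosphorylated on its CD3 and zeta chains by the Src-family kinases Lck and Fyn, and ZAP-70 then docks on those chains. ZAP-70 phosphorylates LAT, a membrane scaffold, and SLP-76, the cytosolic adaptor encoded by Lcp2, which together hold phospholipase C-γ1. That enzyme releases calcium and makes diacylglycerol, and diacylglycerol recruits protein kinase C-θ, encoded by Prkcq, on the way to NF-κB. The phosphatase PTPN22 removes activating phosphates from Lck, Fyn and ZAP-70, and the ubiquitin ligase CBL-B limits signalling in cells that lack costimulation and in tumour-infiltrating CD8 T cells. Most of the 8 have relatives that serve the B cell and myeloid versions of the same cascade, such as Syk for Zap70 and Blnk for Lcp2.

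The stretch of genome just before the start of transcription is shown for the kinase and the brake with the largest differences between groups, Zap70 and Cblb, and for Fyn, which went another way. Each line is 250 bases from RefSeq (build GRCm38.p6), 5′ to 3′ on the gene's strand and ending at the base before the first transcribed one. Capitals mark the motifs that were found.

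Zap70, chr1:36761548-36761797, plus strand: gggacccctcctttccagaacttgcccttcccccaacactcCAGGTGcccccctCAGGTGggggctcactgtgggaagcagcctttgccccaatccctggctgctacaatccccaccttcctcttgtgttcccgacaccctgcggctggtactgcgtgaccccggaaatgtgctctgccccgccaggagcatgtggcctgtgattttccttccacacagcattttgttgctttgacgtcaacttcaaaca

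Cblb, chr16:52031299-52031548, plus strand: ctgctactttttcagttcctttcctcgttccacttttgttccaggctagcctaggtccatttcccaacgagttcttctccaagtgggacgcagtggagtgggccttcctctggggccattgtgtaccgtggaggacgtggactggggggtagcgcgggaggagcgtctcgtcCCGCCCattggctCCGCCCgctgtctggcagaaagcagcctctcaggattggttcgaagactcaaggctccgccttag

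Fyn, chr10:39369549-39369798, plus strand: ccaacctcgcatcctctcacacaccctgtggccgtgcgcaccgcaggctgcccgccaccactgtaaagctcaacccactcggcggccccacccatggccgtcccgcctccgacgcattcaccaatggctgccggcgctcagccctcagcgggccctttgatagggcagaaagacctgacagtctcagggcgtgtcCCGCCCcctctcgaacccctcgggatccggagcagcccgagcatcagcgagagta

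The capitals in Zap70 are matches to the E-box CANCTG on the other strand, where CAGGTG reads CACCTG, and those in Cblb and Fyn are GC boxes, GGGCGG, here on the other strand and so read as CCGCCC. Both strands were searched for these and for an ETS motif (CCGGAAG), a RUNX motif (TGTGGTT), an AP-1 motif (TGANTCA) and a TATA box (TATAAA). All 8 genes matched the RefSeq table, with 11 windows in all since some have several starts. An E-box was in 5 of the 11 windows, in Zap70, Lat, Lcp2 and Plcg1, against 44.8% of all 32851 windows. A GC box was in 4 of 11, in Cblb, Fyn, Plcg1 and Prkcq, against 32.7% of all windows. The ETS, RUNX, AP-1 and TATA letters, present in 6.91%, 4.4%, 6.75% and 12.4% of all windows, were in 0 of the 11. These counts describe letters in a short window and were not tested.

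In the table's own coordinates, Zap70 is on chromosome 1 from 36800879 to 36821899, Fyn on chromosome 10 from 39244851 to 39441377, Lat, on the minus strand, on chromosome 7 from 125962996 to 125968742, and Lcp2 on chromosome 11 from 33996920 to 34042295. Plcg1 is on chromosome 2 from 160573220 to 160617680, Prkcq on chromosome 2 from 11176919 to 11306033, Ptpn22 on chromosome 3 from 103767111 to 103819563, and Cblb on chromosome 16 from 51851588 to 52028411, all on the plus strand like Zap70, Fyn and Lcp2. These starts differ from those in GRCm38, the build named in the submitters' notes, so the build behind the table's coordinates is not known. Reads were counted over the exons of each gene, and exons of Plcg1, Lcp2 and Fyn overlap genes on the opposite strand, those of Lat a microRNA gene on its own strand. No source used here gives the strand setting, so reads in the overlaps cannot be assigned with certainty.

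Depth was 9714020 to 15030442 counts per library, and each of the 8 genes had 673 to 8429 reads in every library. Levels, called CPM, are TMM-scaled counts brought to the same library size, given for replicates 1, 2 and 3 in that order. The sorted populations were not equally rich in T cell RNA: the 11 T cell marker genes summed to 1751 to 1960 CPM in SiaHi_PD1neg, 6309 to 8239 CPM in SiaHi_PD1pos and 7050 to 7949 CPM in SiaLo_PD1pos. All 11 dendritic cell markers were lower in SiaHi_PD1pos than in SiaHi_PD1neg, with sums of 16584 to 19123 CPM in SiaHi_PD1neg, 2666 to 4988 CPM in SiaHi_PD1pos and 1617 to 2009 CPM in SiaLo_PD1pos, and Cd74, the class II invariant chain, was their most abundant gene at 6368 CPM in the first. None of these dendritic genes was at 0 in any group. In bulk RNA, fewer T cells and less RNA per T cell cannot be told apart. For this reason each gene is also given per 100 reads of 4 T cell core transcripts, Cd3e and Cd3g, which encode CD3 chains, and Cd8a and Cd8b1, which encode the CD8 co-receptor.

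The first comparison, SiaLo_PD1pos against SiaHi_PD1pos, addresses the link between α2,6-sialylation and the state of PD-1-positive cells. The proximal signalling genes were at close levels in both groups: 0 of the 8 passed an adjusted p of 0.05 in edgeR's quasi-likelihood test, where 0.268% of all tested genes were higher and 1.13% lower, and 1 of the 8, Cblb, was at an unadjusted p under 0.05, as were 1324 of the 15292 tested genes. Their log2 fold changes ran from -0.27 for Lat to 0.35 for Cblb, with a median of -0.02 beside -0.01 for all tested genes. Against SiaHi_PD1neg, 7 of the 8 genes were higher in each PD-1-positive group on library scaling, where 21% of all tested genes were higher in SiaHi_PD1pos and 20.5% in SiaLo_PD1pos. Per T cell core transcript only Zap70 of the 8 was higher, where 1.9% and 1.81% of tested genes were.

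**Figure D1:**
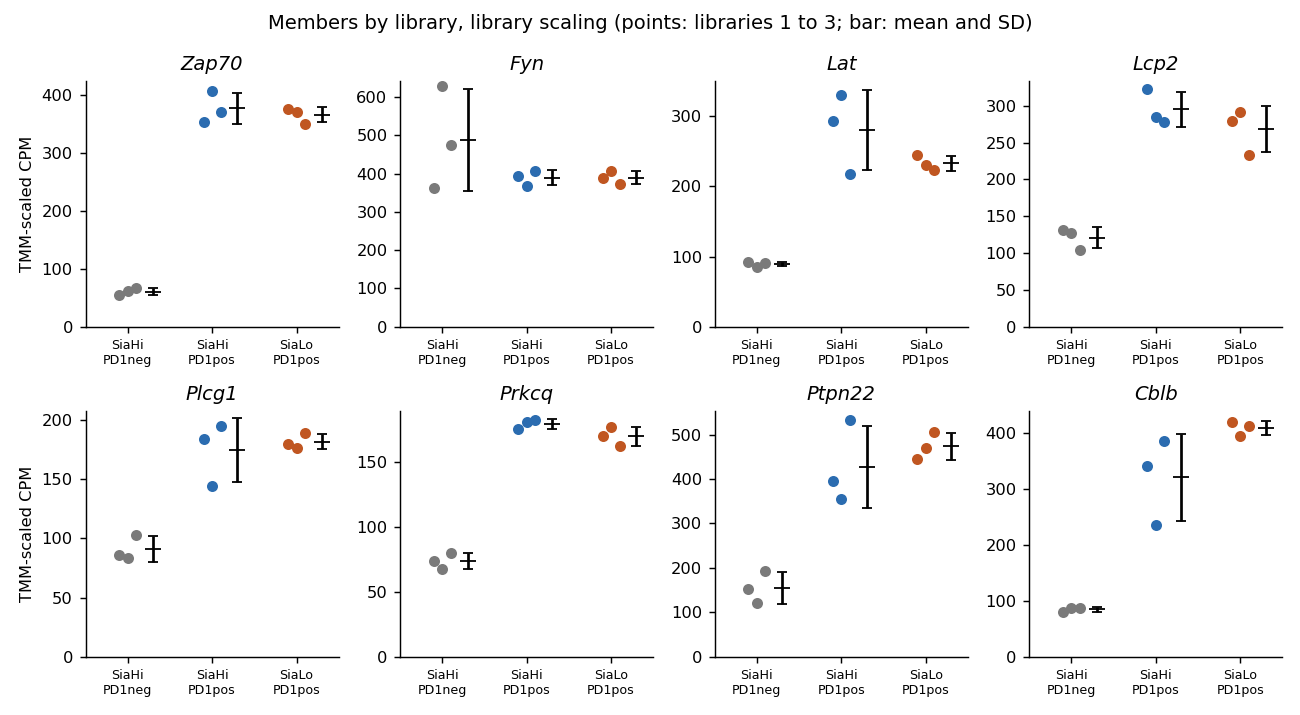
Levels of the 8 genes in TMM-scaled CPM (vertical axes, linear from 0) in each of the 9 libraries, by sorted group; points are replicates 1 to 3 from left to right and the bar beside them is the mean with its SD. In 7 panels the 3 SiaHi_PD1neg points lie below the 6 PD-1-positive points, and in the Fyn panel they run from 363 to 629 CPM and overlap them. Of all tested genes 21% were called higher in SiaHi_PD1pos and 20.5% in SiaLo_PD1pos than in SiaHi_PD1neg. The share of tested genes without overlap is not given here.

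Among the kinases, Zap70 was at 54.4, 61.1 and 66.1 CPM in SiaHi_PD1neg, at 354, 407 and 372 CPM in SiaHi_PD1pos, and at 376, 372 and 351 CPM in SiaLo_PD1pos. The PD-1-positive groups overlapped each other and both lay far above the PD-1-negative libraries. Zap70 was 6.24-fold higher in SiaHi_PD1pos than in SiaHi_PD1neg (log2 2.64, SE 0.13, adjusted p = 2.07e-08 in edgeR), and 6.06-fold higher in SiaLo_PD1pos (log2 2.60, SE 0.12). From SiaHi_PD1pos to SiaLo_PD1pos its log2 fold change was -0.04, with a 95% interval from -0.30 to 0.21.

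Fyn was the 1 gene of the 8 that was not called in either comparison. It was at 363, 629 and 475 CPM in SiaHi_PD1neg, 393, 368 and 407 CPM in SiaHi_PD1pos and 388, 407 and 373 CPM in SiaLo_PD1pos. The PD-1-positive libraries were within a narrow band, while the SiaHi_PD1neg libraries spread on both sides of it. Neither difference passed the test, at log2 -0.33 (SE 0.17, adjusted p = 0.133 in edgeR) for SiaHi_PD1pos and -0.33 (adjusted p = 0.132) for SiaLo_PD1pos. Without SiaHi_PD1neg replicate 1, the library with the lowest Fyn of that group, Fyn was called lower in both (log2 -0.48 in each, adjusted p = 0.0211 and 0.0231). Without SiaHi_PD1neg replicate 2 the differences were -0.07 in each (adjusted p = 0.718 and 0.737). That library, with the highest Fyn, also had the highest sum of 8 plasmacytoid dendritic cell markers, 6651 CPM beside 3917 and 4156 CPM in replicates 1 and 3. Whether RNA of those cells set the Fyn level was not tested.

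Of the adaptors, Lat was at 91.7, 85.5 and 90.5 CPM in SiaHi_PD1neg, 293, 330.5 and 218 CPM in SiaHi_PD1pos, and 245, 230.1 and 224 CPM in SiaLo_PD1pos. The lowest SiaHi_PD1pos library lay under all SiaLo_PD1pos libraries and the other SiaHi_PD1pos libraries above them. Lat rose 3.14-fold from SiaHi_PD1neg to SiaHi_PD1pos (log2 1.65, SE 0.15, adjusted p = 1.87e-06) and 2.61-fold to SiaLo_PD1pos. SiaLo_PD1pos differed from SiaHi_PD1pos by log2 -0.27 (SE 0.14, adjusted p = 0.702 in edgeR). Limma-voom with sample quality weights called this difference at the same size (log2 -0.27, adjusted p = 0.0463).

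Lcp2 was at 131, 127 and 105 CPM in SiaHi_PD1neg, 323, 285 and 278 CPM in SiaHi_PD1pos and 279, 292 and 233 CPM in SiaLo_PD1pos. It rose 2.44-fold in SiaHi_PD1pos (log2 1.29, SE 0.14, adjusted p = 7.59e-06 in edgeR) and 2.22-fold in SiaLo_PD1pos over SiaHi_PD1neg. The PD-1-positive groups overlapped, at a log2 difference of -0.14 with an interval from -0.43 to 0.15.

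The effector enzymes rose too, with 95% intervals below that of Zap70. Plcg1 was at 86.1, 83.2 and 103 CPM in SiaHi_PD1neg, 184, 144 and 195 CPM in SiaHi_PD1pos and 179, 177 and 189 CPM in SiaLo_PD1pos. It rose 1.92-fold in SiaHi_PD1pos (log2 0.94, SE 0.14, adjusted p = 1.48e-04 in edgeR), the smallest rise of the 7. Prkcq was at 73.5, 67.3 and 79.5 CPM, then 175, 181 and 182 CPM, then 170.0, 176 and 162 CPM in the same order of groups. Its libraries agreed closely within each PD-1-positive group, and it rose 2.44-fold in SiaHi_PD1pos and 2.31-fold in SiaLo_PD1pos over SiaHi_PD1neg. For SiaLo_PD1pos against SiaHi_PD1pos the intervals were -0.24 to 0.36 for Plcg1 and -0.33 to 0.17 for Prkcq on the log2 scale.

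Both brakes rose on library scaling. Ptpn22 was at 152, 121 and 193 CPM in SiaHi_PD1neg, 396, 356 and 532 CPM in SiaHi_PD1pos and 446, 469.5 and 507 CPM in SiaLo_PD1pos, with the SiaLo_PD1pos values inside the SiaHi_PD1pos range. It rose 2.76-fold in SiaHi_PD1pos (log2 1.46, SE 0.18, adjusted p = 3.37e-05 in edgeR) and 3.05-fold in SiaLo_PD1pos. Cblb was at 79.9, 86.5 and 87.8 CPM in SiaHi_PD1neg, 341, 234 and 385 CPM in SiaHi_PD1pos and 419, 394 and 411 CPM in SiaLo_PD1pos. It rose 3.78-fold in SiaHi_PD1pos (log2 1.92, SE 0.16, adjusted p = 1.22e-06) and 4.82-fold in SiaLo_PD1pos (log2 2.27).

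Cblb was the one gene of the 8 whose PD-1-positive groups did not overlap on library scaling, with every SiaLo_PD1pos library above every SiaHi_PD1pos library, as for 9.42% of all tested genes. The log2 difference of 0.35 (SE 0.16, interval 0.01 to 0.69) did not pass in edgeR (adjusted p = 0.544). Limma-voom with quality weights gave 0.29 and called it (adjusted p = 0.0246). The gap rests partly on SiaHi_PD1pos replicate 2, without which the difference was 0.19 (adjusted p = 0.758 in edgeR). Of the SiaHi_PD1pos libraries it also had the highest sum of dendritic cell markers, 4988 CPM, and their part in the Cblb value was not tested.

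That library stood apart by gene length, in a check chosen after the values were seen. Over 10776 genes with at least 5 CPM, the longest genes (at least 7006 exonic bases) were at a median log2 deviation of -0.34 from the mean of the group's other libraries in SiaHi_PD1pos replicate 2. The shortest genes (up to 2882 bases) were at 0.38. In replicate 3 of the same group the signs were opposite, at 0.24 and -0.27. The SiaLo_PD1pos libraries ranged from -0.06 to 0.06 for the shortest genes and from -0.05 to 0.05 for the longest. Among the 3 members in the longer class, Cblb, with 10475 exonic bases, and Plcg1, with 7857, were lowest of their group in SiaHi_PD1pos replicate 2, and Prkcq, with 7081, was in the middle. Lat, with 2767 and the only member in the shorter class, was highest there. Of those in neither class, Ptpn22 (6775 bases) and Fyn (4363) were lowest in that library, Lcp2 (4459) in the middle and Zap70 (2992) highest. The part of gene length in the members' values was not tested.

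The 7 rises stood against a background in which 21% of all tested genes were higher and 19.2% lower in SiaHi_PD1pos than in SiaHi_PD1neg. In SiaLo_PD1pos against SiaHi_PD1neg the same 7 genes were higher, where 20.5% of all tested genes were higher and 18.9% lower, but both comparisons use the same SiaHi_PD1neg libraries. The median log2 fold change over the 8 was 1.37 in the former and 1.30 in the latter, beside 0.02 and 0.01 for all tested genes. The 4 core transcripts moved too: Cd3e rose 5.87-fold, Cd3g 4.87-fold, Cd8a 3.19-fold and Cd8b1 3.00-fold from SiaHi_PD1neg to SiaHi_PD1pos. The fitted rises of Lcp2, Plcg1, Prkcq and Ptpn22 were smaller than those of all 4 core genes, that of Lat lay between Cd8b1 and Cd8a, that of Cblb between Cd8a and Cd3g, and that of Zap70 above all 4.

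**Figure D2:**
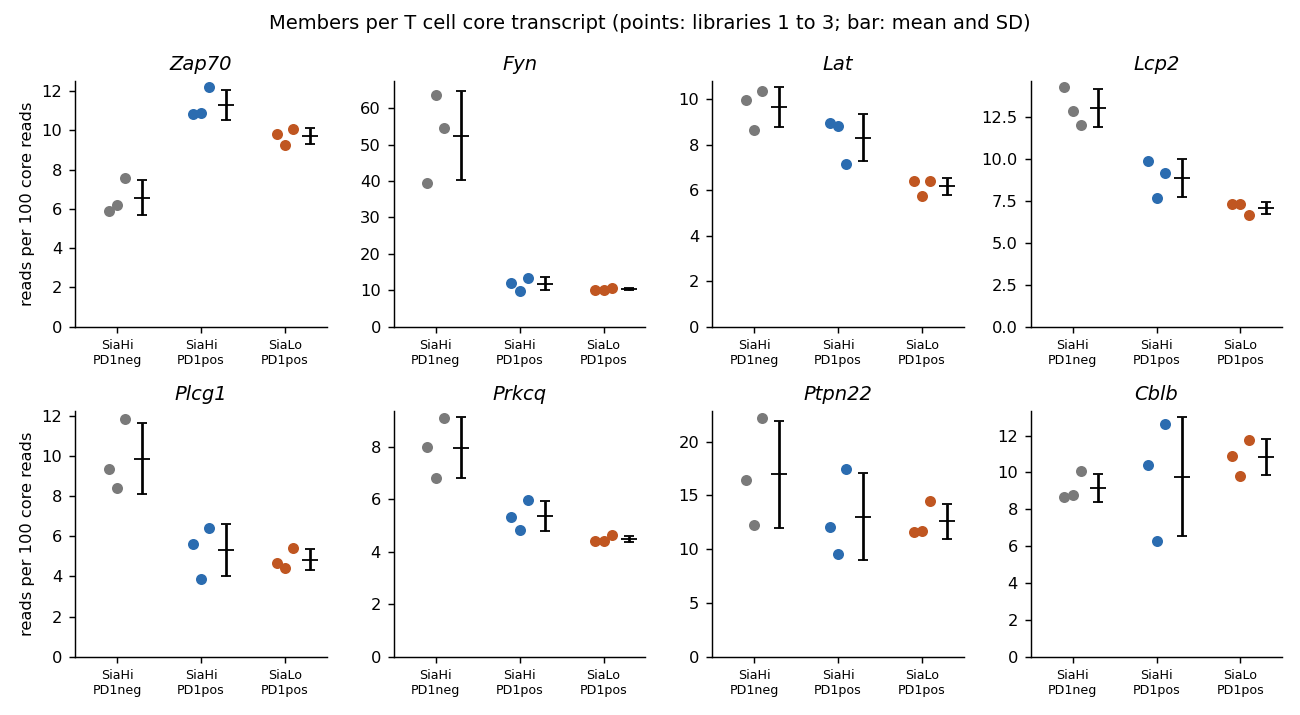
Reads of the 8 genes per 100 reads of the T cell core transcripts Cd3e, Cd3g, Cd8a and Cd8b1 (vertical axes, linear from 0) in each of the 9 libraries; points are replicates 1 to 3 and the bar is the mean with its SD. The SiaHi_PD1neg points are the lowest for Zap70, at 5.91 to 7.58, and the highest for Fyn, at 39.4 to 63.7.

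Per T cell core transcript the picture changed. The core genes made up 0.0914% to 0.0983% of the counts in SiaHi_PD1neg, against 0.314% to 0.346% in SiaHi_PD1pos and 0.355% to 0.392% in SiaLo_PD1pos. With library sizes replaced by these sums, the median of all tested genes moved to a log2 value of -1.82 between SiaHi_PD1pos and SiaHi_PD1neg, and 1.9% of tested genes were higher and 80% lower. Against that background 1 of the 8 genes, Zap70, was higher, 4 were lower and 3 were not called, with a median log2 fold change of -0.47 over the 8. All of the 8 except Fyn lay above the median of all tested genes. In SiaLo_PD1pos against SiaHi_PD1neg, where 1.81% of tested genes were higher and 82.3% lower and the median was -2.01, 1 of the 8 was higher, 5 were lower and 2 were not called.

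Zap70 was at 5.91, 6.19 and 7.58 reads per 100 core reads in SiaHi_PD1neg, 10.8, 10.9 and 12.2 in SiaHi_PD1pos and 9.80, 9.27 and 10.1 in SiaLo_PD1pos. Both PD-1-positive groups were above every SiaHi_PD1neg library, by log2 0.79 (SE 0.13, adjusted p = 1.29e-04 in edgeR) and 0.57 (adjusted p = 0.00152). Of tested genes 1.9% and 1.81% were called higher, and the share higher without overlap is not given here. Fyn was at 39.4, 63.7 and 54.4 reads per 100 core reads in SiaHi_PD1neg, 12.0, 9.86 and 13.3 in SiaHi_PD1pos and 10.1, 10.1 and 10.7 in SiaLo_PD1pos. It was 4.48-fold lower in SiaHi_PD1pos (log2 -2.16, SE 0.17, adjusted p = 2.92e-07) and 5.10-fold lower in SiaLo_PD1pos than in SiaHi_PD1neg. Neither group overlapped SiaHi_PD1neg, and 77.6% and 80.2% of tested genes were likewise lower without overlap.

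For the adaptors, Lat was at 9.96, 8.65 and 10.4 reads per 100 core reads in SiaHi_PD1neg, 8.95, 8.85 and 7.14 in SiaHi_PD1pos and 6.39, 5.74 and 6.40 in SiaLo_PD1pos. SiaHi_PD1neg and SiaHi_PD1pos overlapped (log2 -0.22, adjusted p = 0.160 in edgeR), while SiaLo_PD1pos lay below both and was called lower than SiaHi_PD1neg (log2 -0.65, adjusted p = 8.06e-04). Lcp2 fell from 14.2, 12.8 and 12.0 to 9.85, 7.62 and 9.11 in SiaHi_PD1pos (log2 -0.56, adjusted p = 0.00198) and to 7.27, 7.27 and 6.66 in SiaLo_PD1pos (log2 -0.88, adjusted p = 5.00e-05).

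The effector enzymes fell on this scale. Plcg1 had 9.35, 8.43 and 11.8 reads per 100 core reads in SiaHi_PD1neg, 5.62, 3.86 and 6.39 in SiaHi_PD1pos and 4.67, 4.40 and 5.41 in SiaLo_PD1pos, with log2 fold changes of -0.90 and -1.03 against SiaHi_PD1neg (adjusted p = 0.00101 and 3.38e-04 in edgeR). Prkcq had 7.98, 6.81 and 9.12, then 5.33, 4.83 and 5.96, then 4.43, 4.40 and 4.63, with log2 fold changes of -0.57 and -0.83 (adjusted p = 0.00305 and 1.74e-04). For both enzymes all PD-1-positive libraries were below all SiaHi_PD1neg libraries, as for 77.6% of tested genes in SiaHi_PD1pos and 80.2% in SiaLo_PD1pos.

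Neither brake passed the test on this scale. Ptpn22 was at 16.5, 12.3 and 22.2 reads per 100 core reads in SiaHi_PD1neg, 12.1, 9.53 and 17.4 in SiaHi_PD1pos and 11.6, 11.7 and 14.5 in SiaLo_PD1pos, with overlap throughout (log2 -0.38, interval -0.90 to 0.13, adjusted p = 0.149 in edgeR, and -0.43, interval -0.94 to 0.09, adjusted p = 0.107). It was called lower in SiaHi_PD1pos without SiaHi_PD1neg replicate 2 (log2 -0.57, adjusted p = 0.0447) or SiaHi_PD1pos replicate 3 (-0.65, adjusted p = 0.0193), and in SiaLo_PD1pos without SiaHi_PD1neg replicate 2 (-0.62, adjusted p = 0.0316). Cblb was at 8.68, 8.76 and 10.1, then 10.4, 6.27 and 12.6, then 10.9, 9.82 and 11.8 in the same order. Its differences from SiaHi_PD1neg were log2 0.09 (interval -0.36 to 0.55) and 0.24 (interval -0.21 to 0.70), and the first was called higher without SiaHi_PD1pos replicate 2 (0.33, adjusted p = 0.0428) and negative without replicate 3 (-0.14).

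Between the PD-1-positive groups, 0 of the 8 genes passed in edgeR on core scaling either, where 0.0589% of tested genes were higher and 1.82% lower, and 2, Lat and Lcp2, were at an unadjusted p under 0.05, as were 2032 of the 15292 tested genes. Lat had the largest difference, log2 -0.43 (SE 0.14, interval -0.73 to -0.13, adjusted p = 0.177), and DESeq2 with the same scaling called it (log2 -0.43, adjusted p = 0.0489). Lcp2 was at -0.33 (adjusted p = 0.310), Prkcq at -0.26 and Zap70 at -0.22. In these 4 genes every SiaLo_PD1pos library was below every SiaHi_PD1pos library, as for 21.5% of all tested genes. The median over the 8 was -0.20 beside -0.18 for all tested genes.

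**Figure D3:**
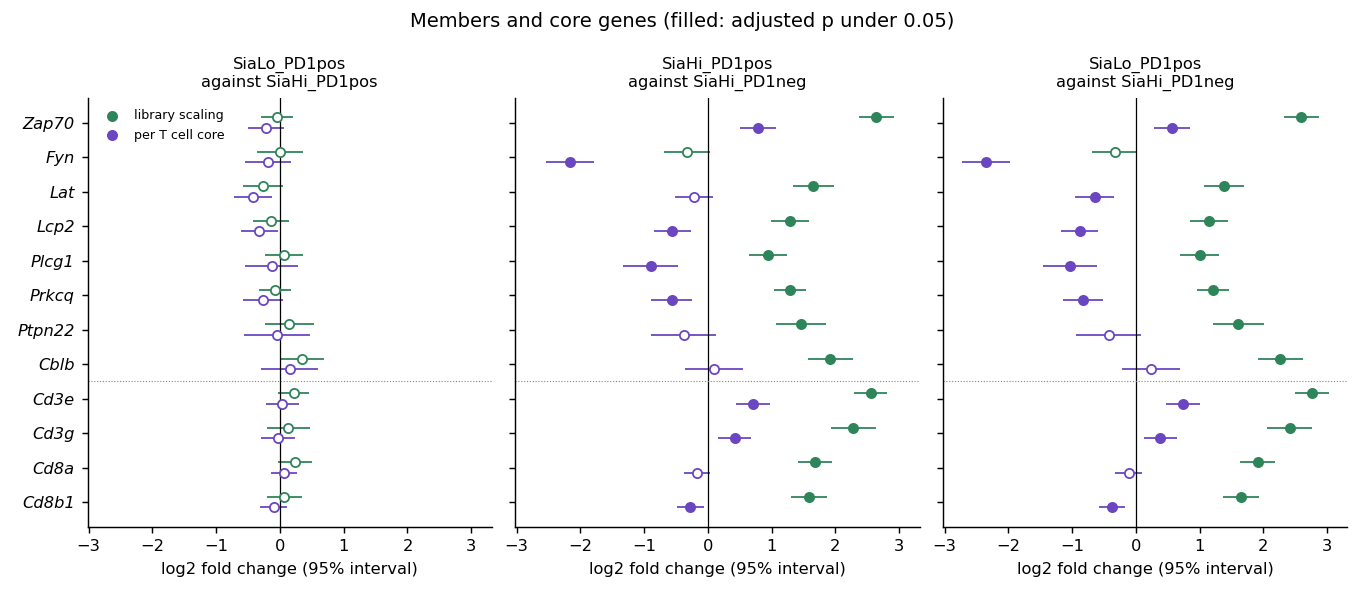
Log2 fold changes of the 8 genes and, below the dotted line, the 4 core genes (horizontal axis) with 95% intervals in the 3 comparisons, on library scaling (green) and per T cell core transcript (purple); filled points passed an adjusted p of 0.05. In the comparison of the PD-1-positive groups no point is filled, and against SiaHi_PD1neg the purple points lie to the left of the green ones, with Zap70 still to the right of 0.

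The core transcripts themselves did not keep 1 ratio, which limits this scale. There were 16.3, 12.2 and 13.2 Cd3e reads per 100 Cd8a reads in the SiaHi_PD1neg libraries, 25.3 to 25.5 in SiaHi_PD1pos and 24.1 to 25.8 in SiaLo_PD1pos. Cd8a is also transcribed by some dendritic cells, whose markers were highest in SiaHi_PD1neg. The shift was not particular to Cd8a. Per core transcript Cd8b1 was at log2 -0.27 in SiaHi_PD1pos against SiaHi_PD1neg (adjusted p = 0.0193 in edgeR), where 80% of tested genes were lower. Cd8a was at -0.17 (adjusted p = 0.108 in edgeR). The part of dendritic cell RNA in the ratio of Cd3e to Cd8a was not tested. With Cd3e and Cd3g alone as the core, Zap70 no longer passed against SiaHi_PD1neg (log2 0.27, adjusted p = 0.155 in edgeR, and 0.06, adjusted p = 0.735 in SiaLo_PD1pos), where 1.33% and 1.27% of tested genes were higher and 85.1% and 86.5% lower. On that core Lat and Ptpn22 were lower in SiaHi_PD1pos (-0.72, adjusted p = 8.60e-04, and -0.88, adjusted p = 0.00715), and Cblb turned to -0.41 (adjusted p = 0.138). Lcp2, Plcg1, Prkcq and Fyn were called lower in both comparisons with that pair and with Cd8a and Cd8b1, where 77.1% and 79.9% of tested genes were lower.

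Zap70 had 80.8, 102 and 117 reads per 100 Cd3e reads in SiaHi_PD1neg, 98.8, 108 and 108 in SiaHi_PD1pos, and 90.9, 84.9 and 87.9 in SiaLo_PD1pos. Zap70 thus stayed close to Cd3e, and the SiaLo_PD1pos libraries were below the SiaHi_PD1pos ones. Fyn had 667, 1028 and 719 reads per 100 Zap70 reads in SiaHi_PD1neg but 90.5 to 111 in SiaHi_PD1pos and 103 to 109 in SiaLo_PD1pos, so the PD-1-positive libraries held Fyn and Zap70 reads in near equal numbers. Lcp2 had 158 to 241 reads per 100 Zap70 reads in SiaHi_PD1neg against 69.9 to 91.1 in SiaHi_PD1pos and 66.2 to 78.5 in SiaLo_PD1pos. Cblb had 133 to 147, then 57.5 to 104, then 106 to 117, with SiaLo_PD1pos above SiaHi_PD1pos in every library. The value of 57.5 was that of SiaHi_PD1pos replicate 2. For this ratio and for Zap70 per Cd3e, the share of tested genes without overlap is not given here.

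Levels of different genes were compared per kilobase of exon. In SiaHi_PD1pos the order was Zap70 at 126 CPM per kilobase (SD 9.04, n = 3), Lat at 101 (SD 20.7), Fyn at 89.3 (SD 4.49), Lcp2 at 66.2 (SD 5.40), Ptpn22 at 63.2 (SD 13.6), Cblb at 30.6 (SD 7.41), Prkcq at 25.3 (SD 0.543) and Plcg1 at 22.2 (SD 3.40). Lat and Fyn, Lcp2 and Ptpn22, Cblb and Prkcq, and Prkcq and Plcg1 were neighbours closer than the larger SD of the pair. In SiaLo_PD1pos the order was Zap70 at 122 (SD 4.43), Fyn at 89.1 (SD 3.91), Lat at 84.2 (SD 4.03), Ptpn22 at 70.0 (SD 4.55), Lcp2 at 60.1 (SD 6.99), Cblb at 39.0 (SD 1.23), Prkcq at 23.9 (SD 1.03) and Plcg1 at 23.1 (SD 0.847), with Prkcq and Plcg1 closer than their SDs. In SiaHi_PD1neg the order was led by Fyn at 112 (SD 30.5), with Lat at 32.3 (SD 1.21), Lcp2 at 27.1 (SD 3.18), Ptpn22 at 22.9 (SD 5.34) and Zap70 at 20.2 (SD 1.95) behind it. Plcg1 at 11.6 (SD 1.37), Prkcq at 10.4 (SD 0.867) and Cblb at 8.09 (SD 0.402) came last. Zap70 thus led the 8 in both PD-1-positive groups, and in SiaHi_PD1neg it was near Ptpn22, within that gene's SD.

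The relatives of the 8 genes went mostly the other way. Of 17 such genes 16 were tested, and from SiaHi_PD1neg to SiaHi_PD1pos on library scaling 9 fell, 2 rose and 5 were not called, with a median log2 fold change of -1.78, where 19.2% of all tested genes fell and 21% rose. The B cell and myeloid partners fell: Syk from 187 CPM (SD 43.3) to 29.0 CPM (SD 5.24), Blnk from 84.3 (SD 30.6) to 5.24 (SD 1.93), and Plcg2 from 127 (SD 11.8) to 24.0 (SD 7.66). So did the Src-family kinases Lyn (log2 -2.24), Fgr (-2.41), Yes1 (-1.99) and Src (-1.34), and the protein kinase C gene Prkcd (-1.95). The rises were Prkch, the protein kinase C-η gene, from 102 CPM (SD 9.70) to 399.8 CPM (SD 28.4), and Ptpn12, a PEST-family phosphatase like Ptpn22, from 36.0 to 69.6 CPM. Per core transcript, where 80% of all tested genes fell, 15 of the 16 fell, Ptpn12 among them (log2 -0.90), and Prkch was at 0.13 without a call. Lat2 was at 35.9 and 23.9 CPM, Prkce at 7.82 and 5.33 CPM, Ptpn18 at 48.1 and 47.8 CPM, Cbl at 131 and 135 CPM and Blk at 1.29 and 0.413 CPM, without a call.

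As a share of reads, Zap70 made up 20.9% to 27.2% of Zap70 and Syk together in SiaHi_PD1neg, 91.4% to 93.6% in SiaHi_PD1pos and 95.3% to 96.4% in SiaLo_PD1pos. Plcg1 was 38.9% to 43.0%, 85.8% to 91.5% and 92.5% to 93.1% of Plcg1 and Plcg2, and Lcp2 was 52.6% to 71.2%, 97.5% to 99.0% and 98.7% to 99.4% of Lcp2 and Blnk. In SiaHi_PD1neg a large part of these reads thus came from the relatives. Shares of reads are not corrected for exon length, which differs within pairs. Per exonic base, Zap70 was 45.2% to 53.9%, Plcg1 25.8% to 29.2% and Lcp2 59.9% to 76.9% of the pair in SiaHi_PD1neg. Fyn was 59.8% to 68.8% of Fyn and Lyn there against 86.7% to 90.0% and 89.8% to 90.6%, and Cblb 37.5% to 40.6% of Cblb and Cbl against 68.5% to 74.9% and 75.6% to 78.9%. Lat was 62.1% to 78.6% of Lat and Lat2, then 91.2% to 93.6%, then 85.4% to 88.3%, the one pair in which SiaLo_PD1pos lay below SiaHi_PD1pos.

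**Figure D4:**
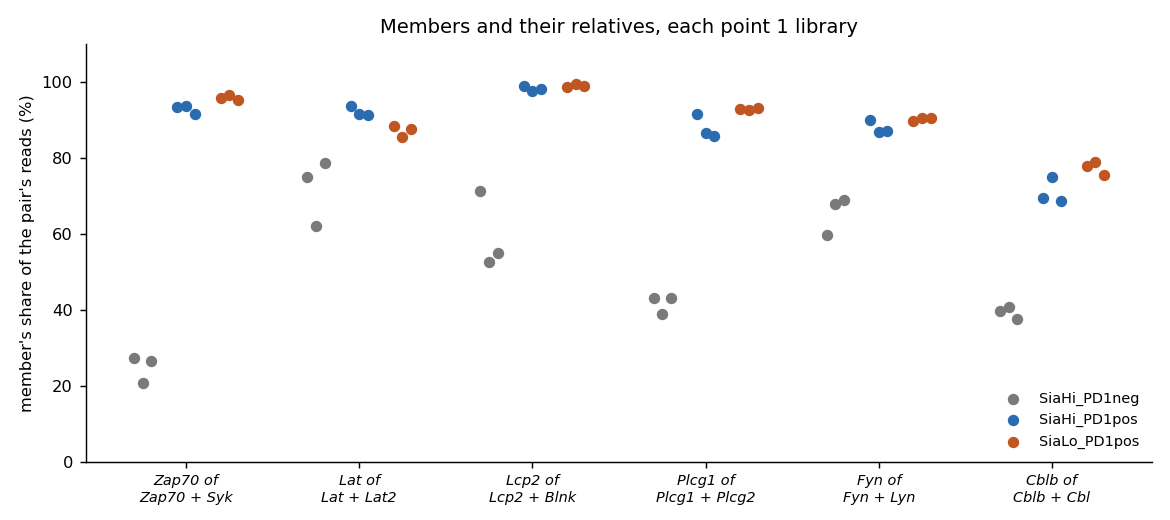
Share of reads (percent, from 0) that the member held in a pair with its closest relative, in each of the 9 libraries, by group. The SiaHi_PD1neg points are the lowest of every pair, from 20.9% for Zap70 with Syk to 78.6% for Lat with Lat2, and the PD-1-positive points are at 68.5% or above. Shares are of reads and not corrected for exon length, so pairs cannot be ranked by them.

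Of the 16 relatives Syk alone was called between the PD-1-positive groups on library scaling, at 15.8 CPM (SD 1.85) in SiaLo_PD1pos against 29.0 CPM (log2 -0.88, SE 0.19, adjusted p = 0.0431 in edgeR). That call ended without SiaHi_PD1neg replicate 3, without any 1 of the SiaHi_PD1pos libraries or without any 1 of the SiaLo_PD1pos libraries (adjusted p 0.0519 to 0.220). Markers of other cells moved in the same comparison, where 0.268% of all tested genes were called higher and 1.13% lower on library scaling. Of dendritic cell markers 7 of 11 were lower in SiaLo_PD1pos, of plasmacytoid markers 4 of 8, and of B and plasma cell markers 3 of 6 tested, whose 10 listed genes summed to 286 to 392 CPM in SiaHi_PD1pos and 123 to 133 CPM in SiaLo_PD1pos, where Fcer2a was at 0. Melanoma markers were higher in SiaLo_PD1pos for 3 of 7, with sums of 794 to 913 CPM in SiaHi_PD1pos and 1558 to 3114 CPM in SiaLo_PD1pos. CD4 and regulatory T cell markers were lower for 3 of 7, and natural killer cell markers higher for 2 of 6. On core scaling 0 of 7 melanoma and 0 of 6 natural killer cell markers were called, while 7 of 11 dendritic cell markers were still lower. Ighm, the immunoglobulin heavy chain, was the most abundant B cell gene at 255 and 104 CPM. Their part in the Syk difference was not tested.

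Other cell types differed between PD-1-positive and PD-1-negative libraries as well, and the values stand beside the rises above. Of 10 macrophage markers 9 were lower in SiaHi_PD1pos, with sums of 3239 to 4135 CPM in SiaHi_PD1neg against 1354 to 2522 CPM (most abundant in SiaHi_PD1neg Apoe), and all 7 melanoma markers were lower, with sums of 3709 to 7851 CPM against 794 to 913 CPM (most abundant Tyrp1). All 8 plasmacytoid markers were lower, with sums of 3917 to 6651 CPM against 658 to 813 CPM (most abundant Irf8). Natural killer cell markers, which cytotoxic T cells share, had sums of 149 to 192 CPM against 884 to 1353 CPM, with 3 of 6 higher, 1 lower and Nkg7 most abundant. CD4 and regulatory T cell markers had sums of 474 to 649 CPM and 407 to 477 CPM, with 3 of 7 higher and 1 lower. The lower one was Cd4, the most abundant of them in SiaHi_PD1neg, at 320.3 CPM there and 32.9 CPM in SiaHi_PD1pos. All 6 stromal markers were lower (most abundant Col3a1). The part of these cells in the differences of the 8 genes was not tested.

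Beyond the 8 genes, 59 others that act in or on the same cascade were counted from lists of kinases, adaptors and exchange factors, calcium and NF-κB steps, and brakes. On library scaling 27 of the 59 were higher in SiaHi_PD1pos than in SiaHi_PD1neg, 7 lower and 25 not called, with a median log2 fold change of 0.32 beside 0.02 for all tested genes, of which 21% were higher and 19.2% lower. By role, 3 of 8 kinases rose and 0 fell, 7 of 17 adaptors rose and 3 fell, 5 of 12 calcium and NF-κB genes rose and 2 fell, and 12 of 22 brakes rose and 2 fell. Sh2d2a, which encodes the T cell-specific adaptor TSAd, went from 121 CPM (SD 23.8) to 887 CPM (SD 99.2), or log2 2.87 (SE 0.16, adjusted p = 5.17e-08 in edgeR).

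Per core transcript 1 of the 59 was higher in SiaHi_PD1pos, 47 were lower and 11 were not called, with a median of -1.52 beside -1.82 for all tested genes, of which 80% were lower. The count of lower genes is thus near the background, and the genes below are named by rank and not as standing apart from it. The gene that rose was Sh2d2a, from 13.2 (SD 3.14) to 26.8 (SD 5.57) reads per 100 core reads (log2 1.02, adjusted p = 2.89e-04). Without SiaHi_PD1neg replicate 1 or SiaHi_PD1pos replicate 2, 2 of the 59 were higher. Among the kinases the lower genes with the smallest adjusted p were Map4k1, the inhibitory kinase HPK1 (log2 -1.63), Csk, which restrains Src-family kinases (-1.34), and Stk4, the Hippo pathway kinase MST1 (-1.70), all with smaller differences than the median of all tested genes. Among the adaptors and exchange factors they were Grb2 (-2.05), the exchange factor Vav1 (-2.01) and Sh3bp2 (-1.97).

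Among the later steps the lower genes named here were the calcineurin subunits Ppp3r1 (-1.84) and Ppp3ca (-1.71). Among the brakes they were Ptpn6, the phosphatase SHP-1 (-2.24), the adaptor Dok1 (-2.22) and the receptor phosphatase Ptprj (-2.78). On library scaling most of the genes just named were not called in the same comparison. The exceptions among them were Csk, which rose (log2 0.51), and Ptprj (-0.95), which fell. Most of them, such as Grb2, Ptpn6 and Vav1, are also expressed by B cells and myeloid cells.

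**Figure D5:**
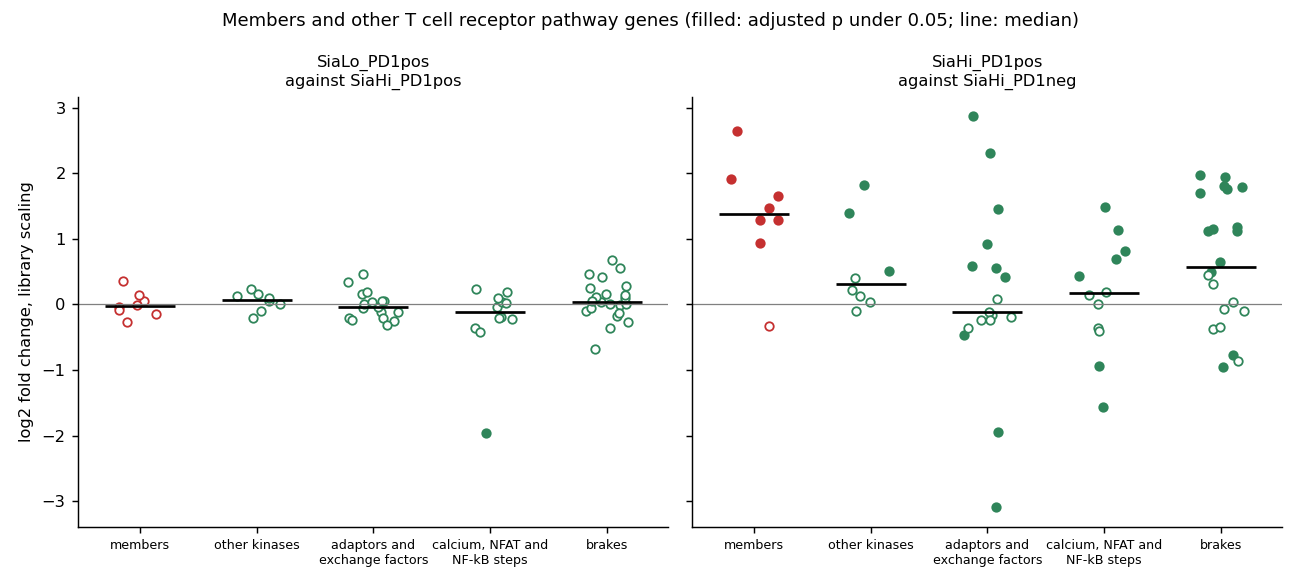
Log2 fold changes on library scaling (vertical axis) of the 8 genes (red) and of the 59 other pathway genes by role (green) in SiaLo_PD1pos against SiaHi_PD1pos (left) and SiaHi_PD1pos against SiaHi_PD1neg (right); each point is a gene, filled where the adjusted p was under 0.05, and the line is the median of the group. On the left 1 point is filled, Tespa1 at -1.97; on the right 7 of the 8 red points are filled above 0. The gene Cbl stands among the brakes and is also a relative of Cblb.

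In SiaLo_PD1pos against SiaHi_PD1pos 1 of the 59 passed on library scaling, where 0.268% of all tested genes were higher and 1.13% lower. The median over the list was 0.01. Tespa1, which encodes a partner of the IP3 receptor that is needed in thymocyte selection, had mean levels of 34.7 CPM (SD 6.41) in SiaHi_PD1pos, 8.88 CPM (SD 0.340) in SiaLo_PD1pos and, among the PD-1-negative libraries, 45.9 CPM (SD 17.8). It fell by 1.97 on the log2 scale (SE 0.27, adjusted p = 0.00200 in edgeR) and by 2.16 per core transcript (adjusted p = 0.00174). The call held without each of the 9 libraries in turn, at adjusted p values of up to 0.0175. Per core transcript Tespa1 was also below SiaHi_PD1neg, by log2 -2.23 in SiaHi_PD1pos and -4.38 in SiaLo_PD1pos. Of tested genes 80% and 82.3% were lower there. The part of other cells' RNA in the Tespa1 differences was not tested. Limma-voom called 6 of the 59 higher and 7 lower, but its share of all tested genes is not given here. In SiaLo_PD1pos against SiaHi_PD1neg 27 of the 59 were higher and 10 lower on library scaling in edgeR. Of all tested genes 20.5% were higher and 18.9% lower there.

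Genes whose profile over the 9 libraries was most like each of the 8 were found by the root mean square difference of centred log2 CPM among 10332 candidates, as a description. Nearest to Zap70 were Ctla4, an inhibitory receptor of activated T cells (0.12), and Tbx21, the transcription factor T-bet (0.14). Cblb was nearest to Mki67, the proliferation marker Ki-67 (0.14), and Osbpl3 (0.14), and Ptpn22 to Itga3 (0.12) and Lin54 (0.13). Lcp2 lay by the mitotic cyclin Ccnb1 and Nup107 (both 0.10), and Lat by Phgdh, the first enzyme of serine synthesis, and Selenoh (both 0.10). Plcg1 lay by Cbx5 and Cnot6l (both 0.08), Prkcq by the DNA repair gene Xrcc5 (0.08) and Rnps1 (0.09), and Fyn by Stk17b (0.07) and Ubxn4 (0.07). Within the 8, Lcp2 and Prkcq were the closest pair (0.16), and Fyn was 0.64 from its nearest, Plcg1. With 9 libraries in 3 groups that differ widely, such likeness holds mainly the difference between PD-1-negative and PD-1-positive libraries.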

How the data were processed

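The authors deposited a table of counts, whole reads per gene. The submitters' processing notes name Trim Galore 0.6.5, STAR 2.7.6a, featureCounts 1.6.3 and the build GRCm38. For the annotation release, the strand setting and reads with several matches, the settings are not given here by any source. Reads were 150 bp pairs with no molecular identifiers described, per the labels, so they may include PCR copies.

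All 9 libraries entered 1 fit with edgeR 4.0.16 (R 4.3.3): filterByExpr, TMM factors (0.928 to 1.05), robust quasi-likelihood F tests, 6 residual degrees of freedom, Benjamini-Hochberg adjustment over 15292 genes and a threshold of 0.05. A fold is 2 raised to the fitted log2 value, and the SE is that value over the square root of F. For core scaling the summed counts of 4 core genes (8884 to 57267) replaced library sizes. Alternatives were other size factors, filters, cores, DESeq2 1.42.0, limma-voom 3.58.1, the 6 libraries compared, a replicate block and each library left out. The procedure was tested on simulated data, where core scaling made more false calls than the threshold allows in the draw for SiaLo_PD1pos against SiaHi_PD1neg. Each comparison had 1 draw, with the same base levels in all groups. The excess therefore cannot be tied to that comparison, and calls on core scaling are less firm in every comparison. The simulation did not hold the real difference in composition between the groups. The genes named are the 8 members, the core genes, relatives with at least 1 CPM, up to 4 called pathway genes per list between the PD-1-positive groups, up to 3 higher and 3 lower per list on core scaling, and 2 like genes each. Members and lists were chosen with earlier results of these data known, so no count over them is independent support. Values of a few genes that this rule names are not reported here.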

Additional observations from a re-analysis of the deposited data

How the results depend on the processing

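Between the PD-1-positive groups, 0 members were called in every fit that left out 1 library, and under the other settings with the following exceptions. Limma-voom with quality weights called 2 (1 higher, 1 lower), and DESeq2 on core scaling called 1 (lower). The shares of all tested genes called by these methods are not given here, so those member counts have no background. Limma-voom also called 6 other pathway genes higher and 7 lower, where edgeR on library scaling called 0 higher and 1 lower. DESeq2 on core scaling called 0 of them higher and 3 lower, where edgeR on that scaling called 0 higher and 1 lower. Without single libraries 7 to 8 members were called in both comparisons with SiaHi_PD1neg on library scaling, 5 to 6 on core scaling in SiaHi_PD1pos and 6 to 7 in SiaLo_PD1pos. These counts take higher and lower calls together. In the main fits 21% and 20.5% of all tested genes were higher on library scaling, and 19.2% and 18.9% lower. On core scaling 1.9% and 1.81% were higher and 80% and 82.3% lower, so most tested genes were called there too. The shares without single libraries are not given here.

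Values near 0 changed sign between the PD-1-positive groups. On library scaling Fyn was at 0.027 without a filter and 0.000337 with only the 6 libraries, and Zap70 at 0.035 and Plcg1 at -0.0084 with limma-voom. On core scaling Ptpn22 was at 0.014 with 10 core genes. Without single libraries Fyn ranged from -0.028 to 0.037, Zap70 from -0.085 to 0.036 and Plcg1 from -0.039 to 0.15 on library scaling, and Cblb from -0.087 to 0.38, Plcg1 from -0.31 to 0.026 and Ptpn22 from -0.23 to 0.22 on core scaling. Against SiaHi_PD1neg on core scaling, Cblb ranged from -0.14 to 0.33 in SiaHi_PD1pos, and turned to -0.41 and to -0.26 in SiaLo_PD1pos with Cd3e and Cd3g as the core. The causes were not tested.

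With a stricter filter, 5 CPM in 3 libraries, Fyn was called lower on library scaling (adjusted p = 0.0444 and 0.0452 in edgeR). Without a filter Ptpn22 was called lower on core scaling (0.0369 and 0.0171). Whether replicate numbers pair the libraries is not known. Correlations of same-numbered deviations were 0.0714 to 0.183 between the PD-1-positive groups, where every library was closest to its own number. They were -0.0347 to 0.107 in SiaHi_PD1pos and -0.0139 to 0.0953 in SiaLo_PD1pos against SiaHi_PD1neg, where this did not hold for every library. With the replicate block Ptpn22 was called lower on core scaling (log2 -0.39, adjusted p = 0.0165, and -0.39, 0.0155), and no other call of a member changed.

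Depth did not limit the members. With 3 libraries per group, intervals between the PD-1-positive groups reached 0.69 on the log2 scale with library scaling and -0.73 with core scaling. Core scaling treats its 4-gene sums as known, so the spread of those sums is not in its errors.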
